A study of Mus musculus with 48 samples.

Results

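The 9 genes described here were grouped under the name activated fibroblast genes. They code for the matrix proteins Postn, Comp, Cilp, Tnc, Thbs1 and Thbs4, the oxidase Nox4, the secreted protein Pi16, and the homeobox transcription factor Meox1. The name is looser for Thbs4, which did not pass between the cell fractions of wild type hearts, and for Pi16, which marks an adventitial fibroblast population. The 9 genes were taken by symbol from 31920 genes in the ventricle tables and 31741 in the cell fraction table. They were chosen by their measured read counts, which were higher in PLNR9C than in wild type hearts given vehicle, so that difference is given below as a description only. The question was which of these disease-raised genes JQ1 lowered. All 9 passed the filter on low counts in each of the 4 sample types. Comp, Tnc and Nox4 did not pass it in cardiomyocytes on the wild type libraries alone.

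Fibroblasts of the healthy heart maintain the collagen network, and in a failing heart they turn into activated, matrix-secreting cells. Activated fibroblasts secrete matricellular proteins, which signal to cells through integrins and growth factors rather than bear load, and TGF-beta signalling is a main driver of this state. Meox1 is a transcription factor of embryonic mesoderm that has been described in mouse hearts as a regulator of fibroblast activation. BET proteins bind acetylated histones at enhancers and promoters and help RNA polymerase II to elongate, and JQ1 is a small molecule that displaces them.

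RNA was sequenced from FVB mice of 2 genotypes, PLNR9C and wild type. PLNR9C is a mutation of phospholamban, the small membrane protein that slows calcium uptake in heart muscle cells, and it causes dilated cardiomyopathy. Mice of both genotypes received JQ1 at 50 mg/kg or vehicle. Ventricles came from mice aged 8 weeks, which the labels place before cardiomyopathy (preDCM), and 20 weeks, which they place in it (DCM). At 16 weeks, hearts were separated into cardiomyocytes and non-myocytes, and the labels call each such sample pooled. Within every sample type there were 4 groups of 3 libraries: PLNR9C with JQ1, PLNR9C with vehicle, wild type with JQ1 and wild type with vehicle. The promoter or allele that carries the mutation, the length of the JQ1 treatment, the sex of the mice and the number of animals in a pool are not given in the sources used.

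Total reads in genes ranged from 16984138 to 27086694 per library at 8 weeks and from 18415351 to 26730918 at 20 weeks. They ranged from 10249780 to 13146653 in cardiomyocytes and from 10041094 to 11815003 in non-myocytes. Levels are given as TMM-normalised counts scaled to a common library size (CPM) and log2 fold changes with their standard error. P-values come from edgeR's quasi-likelihood test, adjusted over all genes of a sample type, and a gene passed below 0.05. 2 libraries stood apart. PLNR9C JQ1 cardiomyocyte replicate 2 had a summed level of 9 fibroblast markers of 6290 CPM, against 2030 and 3690 CPM in replicates 1 and 3. PLNR9C JQ1 non-myocyte replicate 1 had a summed level of 12 cardiomyocyte markers of 5360 CPM, against 2100 and 2280 CPM in replicates 2 and 3.

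The 9 genes were first placed in the cell fractions of wild type hearts given vehicle, with CPM of both fractions on the common scale of their joint fit; elsewhere CPM are scaled within 1 fraction and are not set across fractions. 8 of 9 were higher in non-myocytes than in cardiomyocytes, where 42.2% of all genes tested were. Cilp, a matrix protein that restrains TGF-beta signalling, had 41.0, 38.4 and 30.3 CPM in non-myocytes, against 0.953, 1.62 and 1.54 CPM in cardiomyocytes (log2 fold change 4.73 ± 0.55, adjusted p = 1.3e-07). Pi16, which marks an adventitial fibroblast population, had 166, 162 and 204 CPM in non-myocytes, against 7.98, 11.9 and 9.48 CPM in cardiomyocytes (4.17 ± 0.31, adjusted p = 1.0e-10). In both genes every non-myocyte pool lay far above every cardiomyocyte pool. The exception was Thbs4, a thrombospondin that cardiomyocytes also make under stress, with 8.85, 13.0 and 4.98 CPM in non-myocytes, against 7.62, 10.2 and 7.68 CPM in cardiomyocytes. The 2 fractions overlapped for Thbs4 (0.07 ± 0.45, adjusted p = 0.89). The size of these differences depends on the scale: per total reads alone, mean Thbs4 was 2.05 times as high in non-myocytes as in cardiomyocytes, against 1.05 times on the joint scale, and mean Cilp 52.2 times, against 26.7 times.

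In vehicle-treated hearts at 20 weeks the mean level of the 9 genes was 3.15 to 33.4 times as high in PLNR9C as in wild type ventricles. The ratio was lowest for Meox1, at 3.15, and highest for Comp, at 33.4. All 9 were past the threshold there (23.3% of all genes were higher), as were 8 in non-myocytes (10.3%), 7 in cardiomyocytes (14.3%) and 2 in ventricles at 8 weeks (7.86%). These counts rest on the comparison by which the genes were chosen and support nothing further. Per length of gene, on the authors' deposited RPKM scale, Postn had the highest level of the 9 in PLNR9C vehicle ventricles at 20 weeks (203 ± 45.2 RPKM, SD, n = 3) and Nox4 the lowest (1.63 ± 0.58 RPKM).

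In PLNR9C ventricles at 20 weeks Meox1, Comp, Nox4, Cilp and Thbs1 fell with JQ1. Postn, Thbs4, Tnc and Pi16 did not pass the test, though Postn and Thbs4 were lower and narrowly missed it (adjusted p = 0.052 and 0.058). The genes that fell were not tested against those that did not pass. The 5 of 9 that fell compare with 16.1% of all 15971 genes tested, and none of the 9 passed as higher, against 15.9%. The median log2 fold change of the 9 was -1.01, against 0.0043 over all genes. The PLNR9C vehicle libraries of this comparison also entered the one by which the genes were chosen. In whole ventricle, fewer cells of a type and less RNA per cell cannot be told apart.

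Meox1 (chromosome 11, 101877510 to 101894354, minus strand, GRCm38) had 7.55, 8.41 and 7.84 CPM in PLNR9C ventricles given JQ1, against 40.3, 33.4 and 49.8 CPM in PLNR9C ventricles given vehicle. The groups were far apart, and the spread among the JQ1 libraries was small. The log2 fold change was -2.37 ± 0.22 (adjusted p = 6.8e-06), the 90th lowest of 15971 genes. Meox1 passed in all 18 alternatives tried, at -2.50 to -2.22. The antisense gene Gm11551 overlaps it, and reads of the 2 cannot be told apart because the use of strand in counting is not given.

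Comp (chromosome 8, 70373548 to 70382066, plus strand), the thrombospondin of cartilage and tendon that helps to assemble collagen fibrils, had 8.88, 10.5 and 12.8 CPM with JQ1, against 56.0, 91.4 and 27.8 CPM with vehicle. The vehicle libraries spread widely, yet the lowest of them was above the highest JQ1 library (-2.45 ± 0.40, adjusted p = 0.0020). Nox4 (chromosome 7, 87246795 to 87398606, plus strand), an NADPH oxidase that makes hydrogen peroxide and is induced by TGF-beta, had 3.5, 4.45 and 4.18 CPM with JQ1, against 12.3, 15.1 and 7.0 CPM with vehicle (-1.51 ± 0.25, adjusted p = 0.00027). Its 2 groups did not overlap either.

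Cilp (chromosome 9, 65265180 to 65280605, plus strand) had 42.8, 69.0 and 50.2 CPM with JQ1, against 116, 107 and 120 CPM with vehicle (-1.08 ± 0.23, adjusted p = 0.0056). Thbs1 (chromosome 2, 118111922 to 118127133, plus strand), which releases TGF-beta from its latent complex, had 24.1, 23.9 and 31.7 CPM with JQ1, against 53.5, 44.4 and 62.0 CPM with vehicle (-1.01 ± 0.14, adjusted p = 0.00011). For both genes the JQ1 libraries all lay below the vehicle libraries, at close to 50% of the mean vehicle level: 47.4% for Cilp and 49.7% for Thbs1. Comp, Cilp, Thbs1 and Nox4 likewise passed in all 18 alternatives.

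Postn (chromosome 3, 54361107 to 54391041, plus strand), or periostin, the matricellular protein most used to mark activated fibroblasts, had 259, 425 and 321 CPM with JQ1, against 724, 513 and 536 CPM with vehicle. The groups did not overlap, but the fold change missed the threshold (-0.82 ± 0.28, adjusted p = 0.052). It passed in 5 of 18 alternatives, with adjusted p from 0.024 to 0.16 over all of them; among these were DESeq2 (adjusted p = 0.024), PLNR9C JQ1 replicate 2 left out (-1.03, 0.039) and wild type JQ1 replicate 1 left out (0.028). Thbs4 (chromosome 13, 92751586 to 92794818, minus strand) had 31.2, 27.3 and 16.8 CPM with JQ1, against 36.5, 43.0 and 31.8 CPM with vehicle, a separation of less than 1 CPM at its narrowest (-0.56 ± 0.21, adjusted p = 0.058). Thbs4 passed in 4 of 18 alternatives, among them DESeq2 (0.025) and the fits without PLNR9C JQ1 replicate 1 (0.021), wild type vehicle replicate 2 (0.048) or wild type vehicle replicate 3 (0.047).

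Tnc (chromosome 4, 63959785 to 64047015, minus strand), the matrix glycoprotein tenascin C of injured tissue, had 21.3, 33.1 and 23.5 CPM with JQ1, against 35.5, 21.9 and 27.7 CPM with vehicle. The groups overlapped throughout (-0.13 ± 0.25, adjusted p = 0.74). Pi16 (chromosome 17, 29318882 to 29329099, plus strand) had 159, 262 and 208 CPM with JQ1, against 176, 164 and 141 CPM with vehicle (0.39 ± 0.18, adjusted p = 0.13). Without PLNR9C JQ1 replicate 1, its lowest JQ1 library, Pi16 passed as higher (0.56, adjusted p = 0.017). Tnc and Pi16 overlap the noncoding genes 8030451A03Rik and AC162182.1, and Thbs1 overlaps Gm29233, with the same limit on strand as for Meox1.

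**Figure D1:**
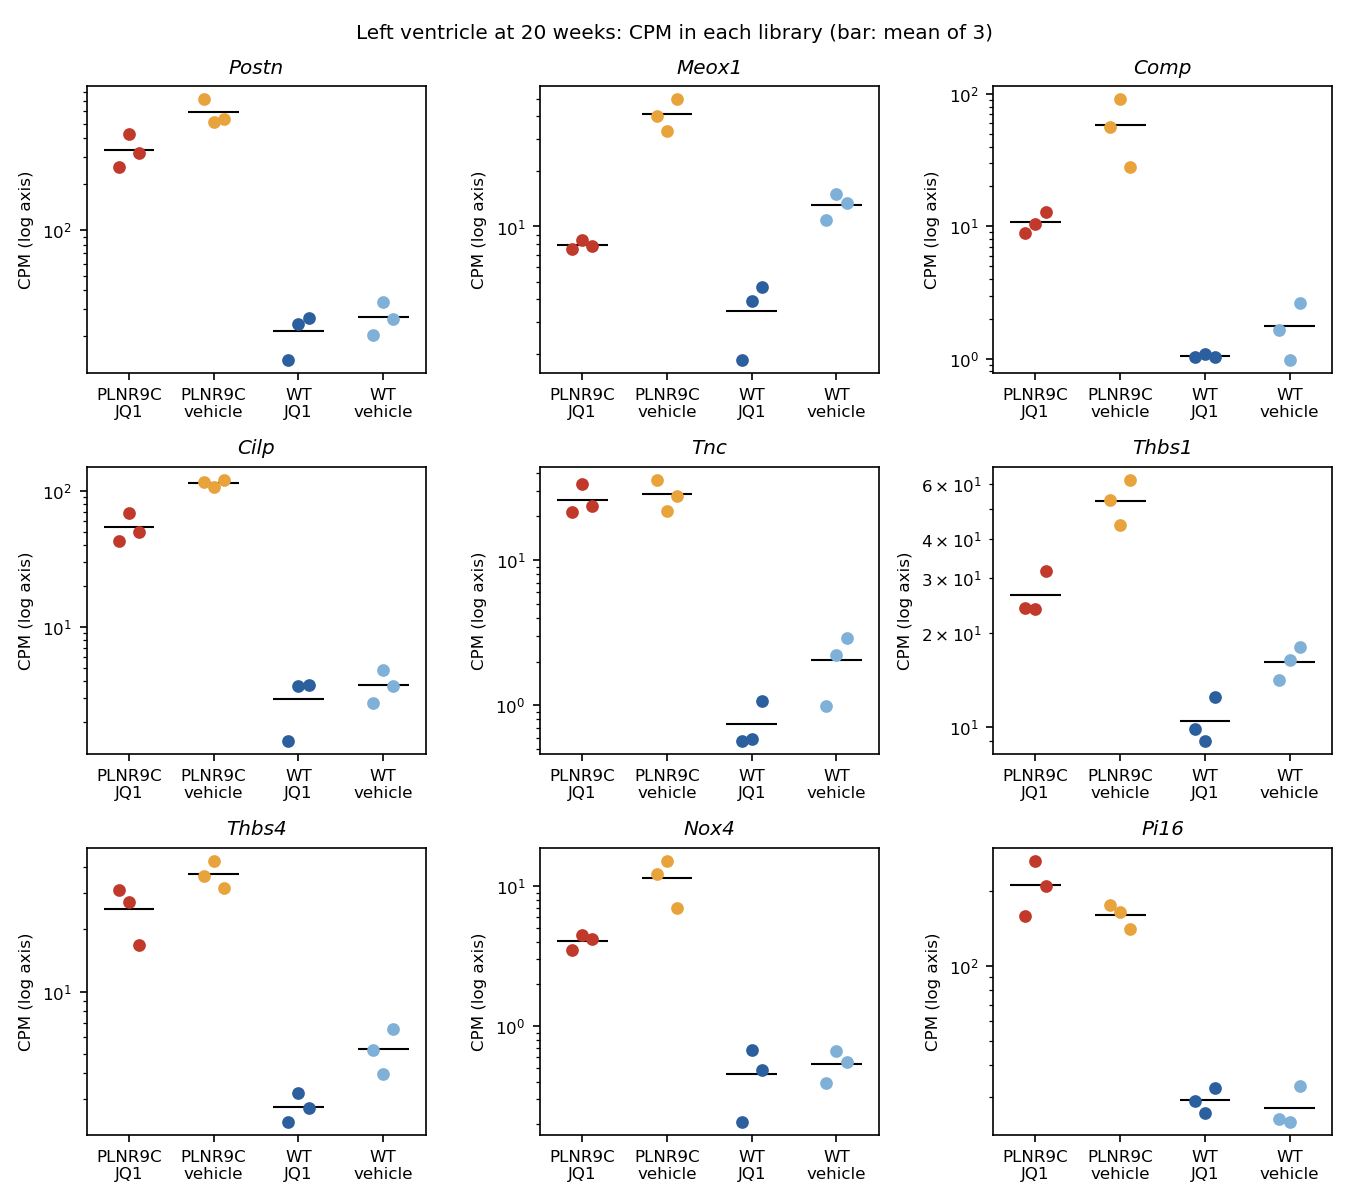
CPM (log axis) of the 9 genes in each of the 12 ventricle libraries at 20 weeks, in 4 groups of 3, with a bar at each group's mean. Meox1 lies at 7.55 to 8.41 CPM in PLNR9C ventricles with JQ1, below the wild type vehicle libraries at 10.9 to 15.0 CPM, while the 2 PLNR9C groups overlap for Tnc and Pi16.

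The summed level of the 9 fibroblast markers, such as Pdgfra, Tcf21 and Dcn, was 6700 to 6810 CPM in PLNR9C ventricles given JQ1, against 6100 to 7380 CPM in those given vehicle. The groups overlapped, with 1 marker higher and 1 lower of 9 past the threshold. The sum of 12 cardiomyocyte markers did differ, at 66400 to 72000 CPM with JQ1, against 50700 to 57900 CPM with vehicle, with 9 of 12 higher and none lower. The sums of macrophage markers, at 950 to 1020 CPM with JQ1, against 635 to 875 CPM with vehicle, and of lymphocyte markers, at 17.5 to 21.7 CPM against 4.41 to 7.64 CPM, also did not overlap. Only 3 of the 10 lymphocyte markers passed the filter on low counts at 20 weeks. The lymphocyte sum was also higher in wild type ventricles at 20 weeks, at 13.1 to 26.6 CPM with JQ1, against 3.04 to 4.04 CPM with vehicle. In wild type cardiomyocytes it was 22.7 to 36 CPM against 1.89 to 4.79 CPM, though Cd3d, Ms4a1 and Nkg7 were at 0 with JQ1. In PLNR9C non-myocytes the lymphocyte sum went the other way, at 10.9 to 12 CPM with JQ1, against 26.8 to 31.7 CPM with vehicle. It is therefore not read as an amount of lymphocytes. No fibroblast or cardiomyocyte marker was at 0, and the part of these sums in the results was not tested.

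To set the genes that fell beside those that did not pass, RefSeq promoter windows on GRCm38.p6 (250 bases before to 50 bases after a transcription start) were read for the members that have one. Windows were found for 6 of 9 genes, 8 windows in all, and for Meox1, Comp and Thbs1 none is shown. 4 are printed, 5′ to 3′ on the gene's strand: Cilp (chr9:65264930-65265229, plus) and Nox4 (chr7:87246399-87246698, plus), which fell, and Postn (chr3:54360857-54361156, plus) and Pi16 (chr17:29318632-29318931, plus), which did not pass. The start in the deposited table is that of the window for Cilp, Postn and Pi16, and lies 146 bases downstream for Nox4. Capitals mark matches, on either strand, to TATAAA, the box that positions polymerase II, to CATTCC, the motif of the TEAD factors, to TGANTCA, the motif of AP-1, or to GTCTG, the binding element of SMAD proteins.
Cilp: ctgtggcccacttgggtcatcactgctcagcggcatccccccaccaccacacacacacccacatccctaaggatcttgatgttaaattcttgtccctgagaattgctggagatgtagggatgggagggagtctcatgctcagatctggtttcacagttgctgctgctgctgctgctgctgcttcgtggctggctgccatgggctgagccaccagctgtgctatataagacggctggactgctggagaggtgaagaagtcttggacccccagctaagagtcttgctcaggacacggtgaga
Nox4: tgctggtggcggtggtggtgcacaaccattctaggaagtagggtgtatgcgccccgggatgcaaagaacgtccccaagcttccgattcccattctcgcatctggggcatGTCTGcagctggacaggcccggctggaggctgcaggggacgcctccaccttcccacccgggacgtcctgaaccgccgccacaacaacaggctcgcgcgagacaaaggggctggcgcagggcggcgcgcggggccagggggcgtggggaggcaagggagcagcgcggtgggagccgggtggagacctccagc
Postn: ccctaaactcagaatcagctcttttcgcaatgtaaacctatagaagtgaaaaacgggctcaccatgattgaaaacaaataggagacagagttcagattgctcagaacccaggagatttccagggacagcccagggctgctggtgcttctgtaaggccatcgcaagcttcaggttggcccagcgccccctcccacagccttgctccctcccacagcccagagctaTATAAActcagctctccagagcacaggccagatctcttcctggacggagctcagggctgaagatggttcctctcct
Pi16: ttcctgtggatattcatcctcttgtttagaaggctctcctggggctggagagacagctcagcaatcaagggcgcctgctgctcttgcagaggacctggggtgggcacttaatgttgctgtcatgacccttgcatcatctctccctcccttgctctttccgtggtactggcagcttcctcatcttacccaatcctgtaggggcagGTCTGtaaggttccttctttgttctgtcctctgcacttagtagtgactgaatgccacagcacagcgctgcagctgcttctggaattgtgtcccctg

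The Postn window had TATAAA at position -26 from the start, which 13.6% of all 32841 promoter windows hold somewhere. Nox4 had GTCTG at -141 and Pi16 had it at -46, and 49.6% of all windows hold it on one strand or the other. Of the windows not printed, GTCTG matched on one strand or the other in the other Postn window, Tnc and Thbs4. TATAAA also matched in Tnc. The Cilp window had no exact match to the letters of the 4 motifs. Variants of these letters, such as the tatataag in the Cilp window, were not searched. The E-box CANNTG, held by 72.3% of windows and left in lower case, matched 3 times in Cilp, 2 times in Nox4 and once in Pi16. TGANTCA (7.81% of windows) matched none of the 8 windows, and CATTCC (14.7%) matched in Thbs4, which is not printed. These matches describe the letters and nothing about binding.

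The level left under JQ1 in PLNR9C was set beside wild type hearts given vehicle, whose libraries also entered the comparison by which the genes were chosen. At 20 weeks 8 of 9 lay above wild type vehicle ventricles in every PLNR9C JQ1 library, and Meox1 lay below it in every one. Mean Meox1 was 7.93 ± 0.44 CPM in PLNR9C ventricles given JQ1, against 13.1 ± 2.07 CPM in wild type ventricles given vehicle (SD, n = 3 each), a ratio of 0.605. The ratio was 1.64 for Thbs1, 4.77 for Thbs4, 6.11 for Comp, 7.51 for Nox4, 7.75 for Pi16, 12.6 for Postn, 12.7 for Tnc and 14.4 for Cilp. These ratios were not tested. At 8 weeks 2 of 9 lay above the wild type vehicle libraries, 6 overlapped them and 1, Meox1, lay below. The share of all genes that lie apart in this way is not given, so the counts at both ages are a description only.

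The genotype effect under JQ1 shares no library with the comparison of genotypes given vehicle, and was tested. The members were chosen with earlier results of these data known, so its counts are not independent of that choice. At 20 weeks 9 of 9 genes were higher in PLNR9C than in wild type ventricles when both had JQ1, where 20.8% of all genes were. Tnc had 21.3, 33.1 and 23.5 CPM in PLNR9C, against 0.569, 0.589 and 1.07 CPM in wild type ventricles (5.12 ± 0.38, adjusted p = 1.5e-06). Cilp had 42.8, 69.0 and 50.2 CPM in PLNR9C, against 1.45, 3.67 and 3.71 CPM in wild type (4.18 ± 0.30, adjusted p = 2.6e-06), and Postn 259, 425 and 321 CPM against 14.0, 24.1 and 26.4 CPM (3.96 ± 0.32, adjusted p = 1.3e-05). The smallest difference was that of Meox1, with 7.55, 8.41 and 7.84 CPM in PLNR9C, against 1.86, 3.90 and 4.64 CPM in wild type (1.18 ± 0.25, adjusted p = 0.0022). The groups overlapped for no member, and the share of all genes that lie apart in this way is not given. The fibroblast marker sum was 6700 to 6810 CPM in PLNR9C, against 2360 to 3040 CPM in wild type, that of macrophage markers 950 to 1020 CPM against 210 to 257 CPM, and that of cardiomyocyte markers 66400 to 72000 CPM against 119000 to 130000 CPM. Their part in the result was not tested.

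The same comparison gave 8 of 9 genes higher in cardiomyocytes (13.6% of all genes), with Thbs1 not passing (1.58 ± 0.58, adjusted p = 0.069). Comp, Tnc and Nox4 passed the filter on low counts there only with the PLNR9C libraries. Their place in this count is thus partly set by the filter, and nothing is read from it. Nox4 in cardiomyocytes (2.91 ± 0.85, adjusted p = 0.025) missed the threshold without PLNR9C JQ1 replicate 2 or 3 or any 1 wild type JQ1 replicate (adjusted p = 0.055 to 0.10). In these cardiomyocyte pools the fibroblast marker sum was 2030 to 6290 CPM in PLNR9C, against 888 to 1250 CPM in wild type, and that of macrophage markers 227 to 695 CPM against 42.3 to 59.5 CPM. Their part in the result was not tested. In non-myocytes 7 of 9 were higher (9.24%), with Thbs1 at 0.40 ± 0.35 (adjusted p = 0.50) and Comp at 1.55 ± 0.61 (0.12) not passing. Comp was set by PLNR9C JQ1 non-myocyte replicate 1, at 18.3 CPM beside 93.5 and 97.3 CPM, and passed without it (2.03, adjusted p = 0.010). Meox1 in non-myocytes (1.10 ± 0.29, adjusted p = 0.025) missed the threshold when any 1 of PLNR9C JQ1 replicates 2 and 3 or wild type JQ1 replicates 1, 2 and 3 was left out (adjusted p = 0.055 to 0.082). Thbs4 in non-myocytes (2.28 ± 0.57, adjusted p = 0.021) missed it without PLNR9C JQ1 replicate 2 or 3 or wild type JQ1 replicate 1 or 2 (0.058 to 0.066).

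**Figure D2:**
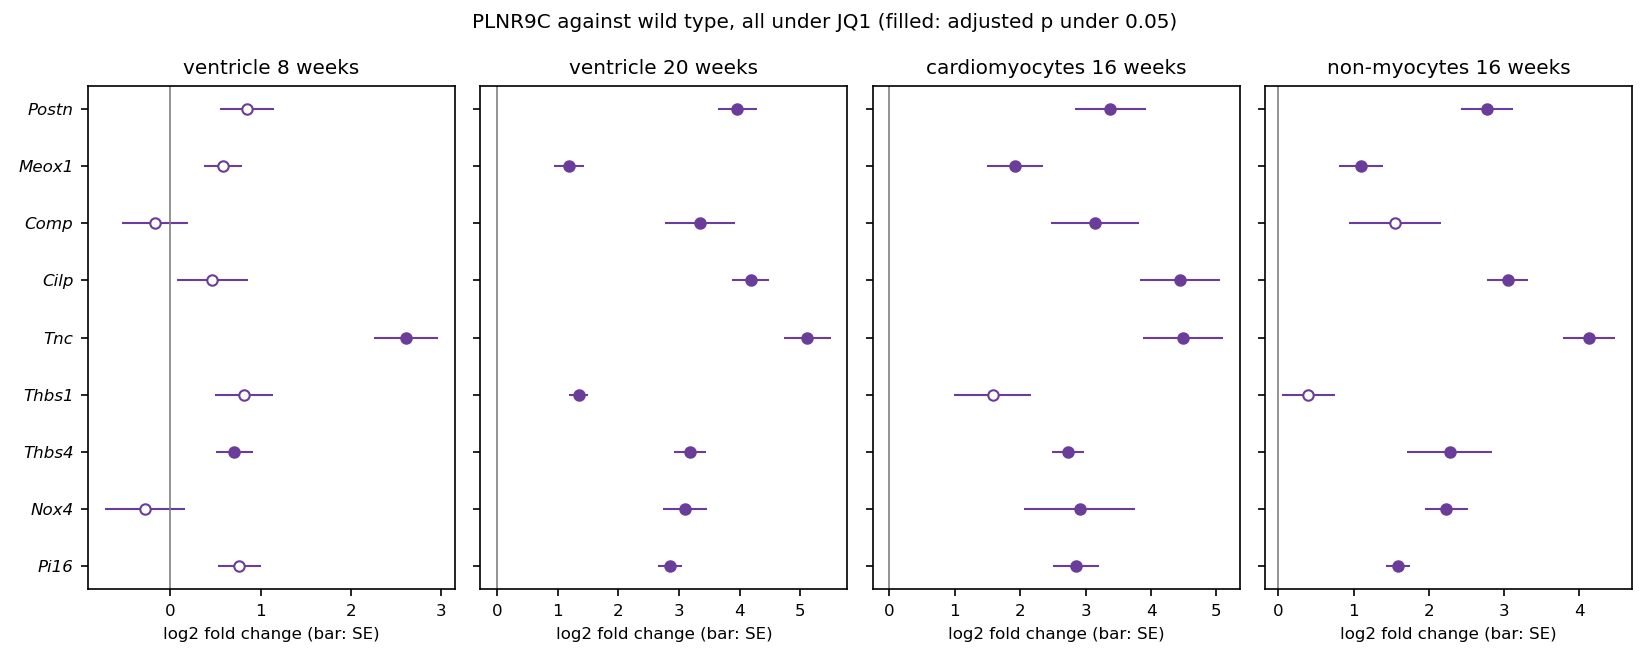
Log2 fold change of PLNR9C against wild type, both under JQ1, for the 9 genes (rows) in the 4 sample types (panels). Bars are standard errors and filled points passed. All 9 points are filled at 20 weeks, from 1.18 for Meox1 to 5.12 for Tnc, and 2 are filled at 8 weeks.

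At 8 weeks, before overt disease, the levels of the 9 genes were lower and JQ1 lowered 3 of 9 in PLNR9C ventricles (17.7% of all 15501 genes): Meox1, Thbs4 and Comp. Meox1 had 3.46, 3.37 and 3.8 CPM with JQ1, against 13.2, 11.6 and 10.2 CPM with vehicle, again without overlap (-1.72 ± 0.18, adjusted p = 1e-06). Thbs4 had 6.10, 7.11 and 5.12 CPM with JQ1, against 10.1, 8.88 and 11.7 CPM with vehicle (-0.72 ± 0.19, adjusted p = 0.0067). Comp had 1.46, 0.897 and 1.78 CPM with JQ1, against 2.65, 1.71 and 3.43 CPM with vehicle. Its groups overlapped (-0.94 ± 0.34, adjusted p = 0.043), and it missed the threshold with DESeq2 (0.055) and without PLNR9C JQ1 replicate 1 (0.074) or 2 (0.19), PLNR9C vehicle replicate 1 (0.097) or 3 (0.17), wild type JQ1 replicate 2 or wild type vehicle replicate 1 (both 0.053).

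Pi16 again stood on the other side at 8 weeks, with 65.2, 56.9 and 33.2 CPM with JQ1, against 36.5, 36.1 and 25.8 CPM with vehicle. It missed the threshold (0.66 ± 0.24, adjusted p = 0.062), and passed with DESeq2 (0.030) and without PLNR9C JQ1 replicate 3 (0.89, adjusted p = 0.00052). The fibroblast marker sum was 3600 to 3910 CPM with JQ1, against 3100 to 3350 CPM with vehicle, and the cardiomyocyte marker sum was 88200 to 97300 CPM against 75200 to 81100 CPM, both with no overlap. Their part in these results was not tested.

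The genotype effect under JQ1 at 8 weeks was seen in 2 of 9 genes (3.43% of all genes were higher). Tnc had 5.06, 8.61 and 4.66 CPM in PLNR9C, against 1.33, 1.20 and 0.533 CPM in wild type ventricles (2.61 ± 0.36, adjusted p = 0.00066). Thbs4 had 6.10, 7.11 and 5.12 CPM in PLNR9C, against 4.57, 4.32 and 2.49 CPM in wild type (0.71 ± 0.21, adjusted p = 0.049). The Thbs4 call was lost in 10 of 18 alternatives, at adjusted p of 0.054 to 0.21; among them were the fits without PLNR9C JQ1 replicate 2 (0.21) and wild type JQ1 replicate 3 (0.19). No member's JQ1 effect in PLNR9C differed between 20 and 8 weeks by edgeR's test (0 of 9 with edgeR and with DESeq2; 0.271% of all genes with edgeR). At an unadjusted p under 0.05 it was 2 of 9, beside 1648 of all 16220 genes. The difference, 20 minus 8 weeks, was largest for Comp, at -1.52 ± 0.64 (adjusted p = 0.43), and was -0.67 ± 0.30 for Meox1 (0.46).

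In the non-myocyte pools, where most fibroblast RNA was, JQ1 lowered 3 of 9 genes in PLNR9C (19.5% of all 15347 genes) and raised 1 (16.7%). Meox1 had 26.6, 45.4 and 43.7 CPM with JQ1, against 170, 105 and 99.7 CPM with vehicle (-1.70 ± 0.28, adjusted p = 0.00095). Nox4 had 14.0, 17.8 and 26.1 CPM with JQ1, against 33.2, 34.7 and 50.8 CPM with vehicle (-1.04 ± 0.24, adjusted p = 0.0055). The JQ1 pools lay below the vehicle pools for both genes. Cilp had 190, 278 and 315 CPM with JQ1, against 517, 294 and 537 CPM with vehicle, with overlap (-0.79 ± 0.25, adjusted p = 0.027). Its call was lost without PLNR9C JQ1 replicate 1 (0.094) or 2 (0.060), without PLNR9C vehicle replicate 1 or 3 (both 0.088), with no filter on low counts (0.066) and with the compared groups alone (0.064).

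Pi16 was the member that rose in non-myocytes, with 725, 1038 and 981 CPM in PLNR9C pools given JQ1, against 625, 526 and 680 CPM in those given vehicle (0.58 ± 0.16, adjusted p = 0.0096). All JQ1 pools lay above all vehicle pools, and Pi16 passed in all 18 alternatives. Comp and Thbs1, which fell in the ventricle at 20 weeks, did not pass here. Comp had 18.3, 93.5 and 97.3 CPM with JQ1, against 90.3, 56.8 and 108 CPM with vehicle (-0.29 ± 0.58, adjusted p = 0.73). Thbs1 had 327, 558 and 444 CPM with JQ1, against 697, 397 and 744 CPM with vehicle (-0.47 ± 0.35, adjusted p = 0.33). Postn, at 724, 1385 and 1469 CPM against 1694, 834 and 1752 CPM, showed the same overlap (-0.26 ± 0.32, adjusted p = 0.57). The fibroblast marker sum was 33600 to 41900 CPM with JQ1, against 29900 to 33400 CPM with vehicle, and its part in these results was not tested.

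Mean levels in PLNR9C vehicle cardiomyocyte pools ran from 2.3 CPM for Nox4 to 92.2 CPM for Postn. Pi16 alone passed in PLNR9C (1 of 9 higher and 0 lower, against 6.14% and 4.33% of all 14142 genes), with 52.4, 157 and 77.3 CPM with JQ1, against 41.9, 29.6 and 44.5 CPM with vehicle (1.31 ± 0.33, adjusted p = 0.029). Without PLNR9C JQ1 replicate 2, the library rich in fibroblast markers, the fold change was 0.75 (adjusted p = 0.056). The call was also lost without PLNR9C vehicle replicate 1 (0.063), 2 (0.10) or 3 (0.053), with a replicate block (0.051), with no filter on low counts (0.068) and with the 6 compared libraries alone (0.11). Meox1 had 2.92, 10.2 and 6.11 CPM with JQ1, against 14.3, 9.20 and 10.6 CPM with vehicle (-0.82 ± 0.36, adjusted p = 0.16), and passed without that library (-1.32, adjusted p = 0.047). Comp had 2.06, 16.4 and 10.3 CPM with JQ1, against 6.62, 3.81 and 6.78 CPM with vehicle (0.75 ± 0.55, adjusted p = 0.41). It passed as higher without PLNR9C JQ1 replicate 1 (1.25, adjusted p = 0.027). The fibroblast marker sum was 2030 to 6290 CPM with JQ1, against 1620 to 2240 CPM with vehicle, and its part in these values was not tested beyond leaving out replicate 2.

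The JQ1 effect in PLNR9C was then compared between non-myocytes and cardiomyocytes. No member passed with edgeR or DESeq2 (0 of 9; 2.43% of all genes with edgeR). At an unadjusted p under 0.05 it was 2 of 9, beside 3227 of all 15823 genes. The difference, non-myocytes minus cardiomyocytes, was -0.99 ± 0.46 for Meox1 (adjusted p = 0.23) and -1.16 ± 0.82 for Comp (0.45). Pools of the 2 fractions with the same number deviated together, and with these pairs as a replicate block both passed, Meox1 at -0.89 (adjusted p = 0.026) and Comp at -1.07 (adjusted p = 0.011). Without PLNR9C JQ1 cardiomyocyte replicate 1, Meox1 passed at -1.32 (0.049) and Pi16 at -1.12 (0.025).

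**Figure D3:**
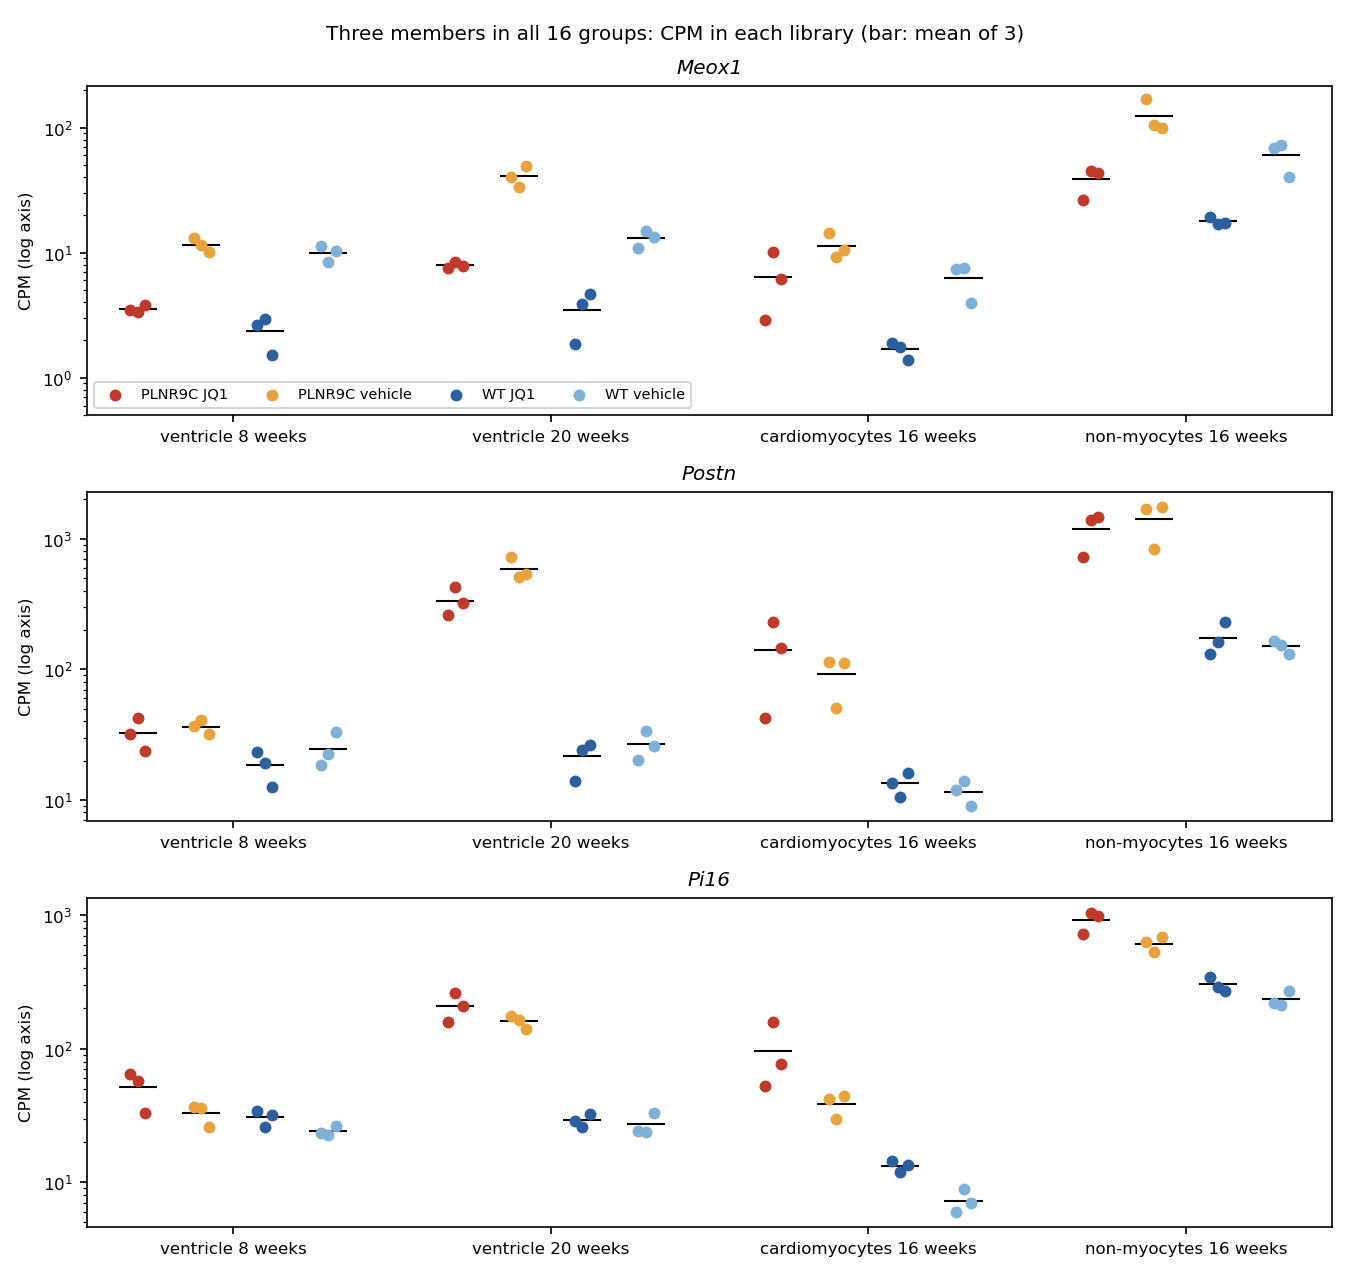
CPM (log axis) of Meox1, Postn and Pi16 in each of the 48 libraries, by sample type and group, with a bar at each group's mean. Meox1 is lower with JQ1 in both genotypes of every sample type except for overlap in PLNR9C cardiomyocytes, while Pi16 means are higher with JQ1 throughout, most of them with overlapping libraries or without passing the test.

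In wild type hearts JQ1 lowered Meox1 in all 4 sample types. At 20 weeks it had 1.86, 3.90 and 4.64 CPM with JQ1, against 10.9, 15.0 and 13.4 CPM with vehicle (-1.90 ± 0.25, adjusted p = 0.00013). At 8 weeks it had 2.66, 2.94 and 1.51 CPM with JQ1, against 11.4, 8.40 and 10.3 CPM with vehicle (-2.08 ± 0.19, adjusted p = 2.9e-07). In non-myocytes it had 19.5, 17.0 and 17.3 CPM with JQ1, against 68.8, 72.6 and 40.5 CPM with vehicle (-1.76 ± 0.29, adjusted p = 0.00095). None of these groups overlapped, and Meox1 ranked between the 109th and the 402nd lowest log2 fold change of all genes in these 3 sample types. In cardiomyocytes it had 1.90, 1.77 and 1.40 CPM with JQ1, against 7.36, 7.57 and 3.98 CPM with vehicle (-1.90 ± 0.43, adjusted p = 0.032). That last call was lost in 6 of 18 alternatives, without PLNR9C JQ1 replicate 3 (0.056), wild type JQ1 replicate 1 (0.097), 2 (0.088) or 3 (0.13), or wild type vehicle replicate 1 (0.10) or 2 (0.11). The cardiomyocyte marker sum was 9050 to 11900 CPM with JQ1, against 3850 to 5870 CPM with vehicle, in wild type non-myocytes, and 119000 to 130000 CPM against 98200 to 111000 CPM in wild type ventricles at 20 weeks. Its part in these results was not tested.

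Of the other members, Thbs1 and Thbs4 fell in wild type ventricles at 20 weeks, which made 3 of 9 with Meox1 (14.9% of all genes were lower). Thbs1 had 9.88, 9.02 and 12.5 CPM with JQ1, against 14.2, 16.4 and 18.1 CPM with vehicle (-0.63 ± 0.16, adjusted p = 0.0087). Thbs4 had 2.33, 3.22 and 2.73 CPM with JQ1, against 5.19, 4.0 and 6.59 CPM with vehicle (-0.92 ± 0.29, adjusted p = 0.035). The Thbs4 call was lost without wild type JQ1 replicate 1 (0.13), 2 (0.058) or 3 (0.10) and without wild type vehicle replicate 1 (0.087) or 3 (0.12). At 8 weeks 2 of 9 fell (15.4%), Meox1 and Thbs1, which had 10.7, 8.14 and 7.60 CPM with JQ1, against 14.9, 12.7 and 26 CPM with vehicle. The Thbs1 value (-1.02 ± 0.32, adjusted p = 0.041) was lost in 12 of 18 alternatives, at up to 0.12 without wild type JQ1 replicate 2 or 3, and was -0.64 (0.088) without wild type vehicle replicate 3. Tnc at 20 weeks (-1.43 ± 0.50, adjusted p = 0.056) passed in 6 of 18 alternatives, among them DESeq2 (0.0073) and wild type vehicle replicate 1 left out (0.010). In each of the 2 fractions 1 of 9 fell, Meox1 (1.93% of all genes in cardiomyocytes and 20.0% in non-myocytes). Nox4 (-0.81 ± 0.31, adjusted p = 0.053) and Cilp (-0.62 ± 0.26, 0.082) were lower in wild type non-myocytes but missed the threshold. Both passed with DESeq2 (0.025 and 0.040) and with the compared groups alone (0.031 and 0.013). Pi16 was on the other side there (0.37 ± 0.16, adjusted p = 0.077).

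Comp, Cilp and Nox4, which fell in PLNR9C ventricles at 20 weeks, did not pass in wild type ventricles, where they stood at -0.71 ± 0.75, -0.34 ± 0.36 and -0.20 ± 0.50. Their wild type levels were low, at 1.03 to 1.09 CPM with JQ1 against 0.978 to 2.64 CPM with vehicle for Comp, and 0.207 to 0.680 CPM against 0.390 to 0.666 CPM for Nox4. The difference between genotypes was itself tested, and 0 of 9 members passed in each of the 4 sample types with edgeR and with DESeq2. At an unadjusted p under 0.05 there were 2 of 9 at 20 weeks, beside 1641 of all 15971 genes. They were Nox4 (-1.31 ± 0.56, adjusted p = 0.43) and Tnc (1.30 ± 0.56, adjusted p = 0.47). There were 0 of 9 in the other 3 sample types. Of all genes 0.357% passed at 20 weeks and 0.00645% at 8 weeks, and 0.00% in either fraction, where 954 cardiomyocyte and 1391 non-myocyte genes had an unadjusted p under 0.05 and DESeq2 called 6 and 64.

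**Figure D4:**
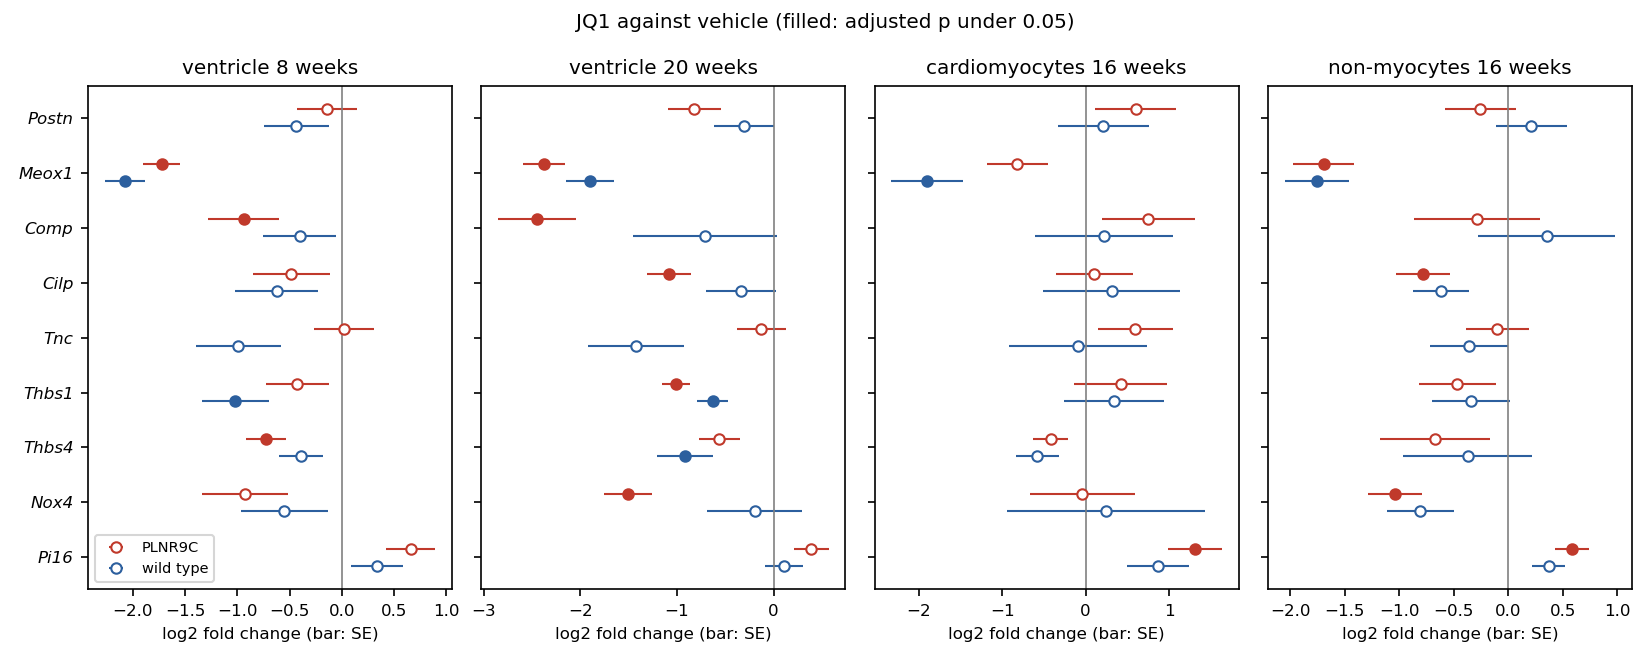
Log2 fold change of JQ1 against vehicle for the 9 genes (rows) in the 4 sample types (panels), in PLNR9C (upper, red) and wild type (lower, blue). Bars are standard errors and filled points passed. Meox1 is filled in 7 of 8 cases, all below 0, and Pi16 lies above 0 in all 8, filled in PLNR9C cardiomyocytes and non-myocytes.

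Relatives of the 9 genes in the same families were mixed in direction. Of the thrombospondins that are not members, Thbs3 fell with JQ1 in PLNR9C ventricles at 20 weeks (26.5 ± 1.79 CPM with JQ1, against 34.5 ± 3.45 CPM with vehicle, SD, n = 3 each; -0.39 ± 0.13, adjusted p = 0.029). Thbs2, an inhibitor of angiogenesis, did not pass (49.5 ± 12.9 CPM against 57.7 ± 8.95 CPM; -0.22 ± 0.24, adjusted p = 0.53). Tgfbi, which shares the fasciclin domains of Postn, fell by 0.53 on the log2 scale (adjusted p = 0.0073). Stab1, a scavenger receptor with such domains, rose by 0.33 (0.0049), and the tenascin Tnxb rose by 0.38 (0.021). Meox2, the closest relative of Meox1, rose (14.7 ± 1.52 CPM with JQ1, against 10.9 ± 0.53 CPM with vehicle; 0.43 ± 0.16, adjusted p = 0.046). Cilp2 was close to the floor of detection, at up to 0.559 CPM in these 6 libraries, and did not pass (adjusted p = 0.58).

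Of 30 other genes of activated fibroblasts, 13 fell and none rose with JQ1 in PLNR9C ventricles at 20 weeks, at a median of -0.54, beside 16.1% and 15.9% of all genes. Among them were Ddah1, which degrades an inhibitor of nitric oxide synthesis (-0.83 ± 0.12, adjusted p = 5.1e-05), Itgbl1 (-0.88 ± 0.13, adjusted p = 0.00018), the collagen Col12a1 (-1.21 ± 0.20, adjusted p = 0.00040) and the microfibril protein Mfap4 (-1.06 ± 0.17, adjusted p = 0.00067). In PLNR9C non-myocytes 2 of these 30 fell and 1 rose (median -0.13), beside 19.5% and 16.7% of all genes. In PLNR9C ventricles at 8 weeks 3 of 29 fell, beside 17.7% of all genes, and 1 rose (median -0.22). With both genotypes under JQ1 at 20 weeks, 27 of 30 were higher in PLNR9C, beside 20.8% of all genes, and none lower. Among the higher were the protease inhibitor Timp1 (5.45 ± 0.33, adjusted p = 2.2e-09) and the procollagen protease Adamts2 (1.95 ± 0.12, adjusted p = 2.9e-09). Of 16 markers of resting fibroblasts 1 rose with JQ1 in PLNR9C ventricles at 20 weeks, Gsn (0.29 ± 0.08, adjusted p = 0.011), and 1 fell, Pdgfra (-0.53 ± 0.10, adjusted p = 0.0010), at a median of -0.06. Under JQ1, 12 of these 16 were higher in PLNR9C than in wild type and 1 was lower; Fbln1 was at 1.95 ± 0.11 (adjusted p = 1.1e-09) and Mfap5 at 2.72 ± 0.17 (3.9e-08).

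Of 21 TGF-beta pathway genes tested, 6 fell and 4 rose with JQ1 in PLNR9C ventricles at 20 weeks (median -0.25), beside 16.1% lower and 15.9% higher of all genes. The counts of the next 3 lists, for the same comparison, are read against the same shares. The ligand Tgfb3 fell (-0.98 ± 0.10, adjusted p = 1.6e-06), as did the latency protein Ltbp3 (-0.48 ± 0.07, 7.3e-05), while the ligand Tgfb1 rose (0.67 ± 0.10, 7.2e-05), as did the repressor Ski (0.54 ± 0.07, 1.6e-05). Of 9 NADPH oxidase genes other than Nox4, 3 fell and 1 rose. Those that fell were the phagocyte subunits Ncf1 (-1.23 ± 0.19, adjusted p = 0.00013) and Ncf4 (-0.67 ± 0.22, 0.025) and the dual oxidase Duox2 (-1.59 ± 0.40, 0.0058), while Cyba, the membrane subunit that Nox4 needs, rose (0.45 ± 0.14, 0.020). Of 14 receptors of matricellular proteins 6 fell, among them the integrin subunits Itga9 (-0.65 ± 0.12, adjusted p = 0.00096), Itga3 (-0.43 ± 0.09, 0.0011), Itgb5 (-0.30 ± 0.07, 0.0037) and Itga8 (-0.71 ± 0.18, 0.0068), and 1 rose. Under JQ1 the syndecan Sdc4 was higher in PLNR9C than in wild type (1.22 ± 0.10, 5.3e-08) and Cd36, a receptor of thrombospondins and fatty acids, was lower (-0.92 ± 0.09, 1.9e-07). Of 7 mesodermal transcription factors set beside Meox1, 1 rose with JQ1, Meox2, and none fell; Prrx2 was at -0.17 ± 0.44 and Twist1 at 0.18 ± 0.35, and both were higher in PLNR9C than in wild type under JQ1 (3.40 ± 0.69 and 1.45 ± 0.40, adjusted p = 0.00066 and 0.0075).

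**Figure D5:**
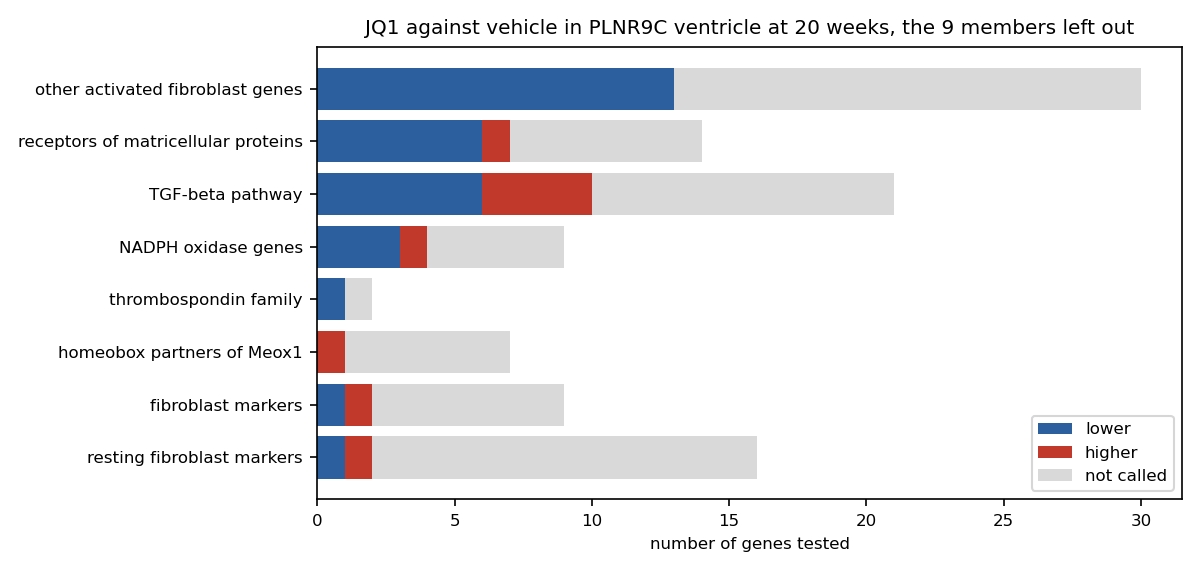
Number of genes in 8 lists related to the 9 genes (which are left out) that were lower, higher or not past the threshold with JQ1 against vehicle in PLNR9C ventricles at 20 weeks. Of 30 other activated fibroblast genes 13 were lower, and of 16 resting fibroblast markers 1 was lower and 1 higher; 16.1% of all genes tested were lower.

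Across the 12 ventricle libraries at 20 weeks, 7 of the other 8 members followed Postn closely in log2 CPM (Pearson's r of 0.914 to 0.998), and Meox1 did so less (0.668). Meox1 was closest to Thbs1 (0.865) and furthest from Pi16 (0.461). These values describe libraries that share groups, so they mostly restate differences between groups, and no p is given. Of 13113 other genes with a mean of at least 1 CPM, the 5 nearest to Meox1 in this measure were Chst14 (0.993), a sulfotransferase that acts on dermatan sulfate, Tns3 (0.990), Nras (0.987), Poglut1 (0.981) and Tmem209 (0.980). The 5 nearest to Postn were the member Cilp (0.998), Fbln2 (0.996), Mfap4 (0.996), Col14a1 (0.995) and Bgn (0.994), all genes of matrix proteins.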

How the data were processed

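All 48 libraries were analysed from whole-number counts of reads in each gene, as the authors deposited them. The authors also deposited a normalized value per gene, which was treated as RPKM because it checked as reads over gene length and library size, and it entered no test. STAR 2.4.1b and the builds GRCm38 and mm10 are listed per the submitters' processing notes. No source used here names the counting tool, the annotation or the use of strand. Positions are those of the deposited tables with a 1-based start. Of 31920 starts, 7595 equal the GENCODE M21 gene start after that shift.

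Each sample type was fitted on its own 12 libraries in edgeR 4.0.16 under R 4.3.3: filterByExpr by group, TMM, glmQLFit with robust estimation, glmQLFTest, and Benjamini-Hochberg adjustment over all genes tested. 24 libraries entered the fits across fractions and across ages. Standard errors are the log2 fold change over the square root of F. CPM uses TMM-scaled library sizes, over both fractions where these are compared. Alternatives were DESeq2 1.42.0, RLE factors, no filter, at least 10 reads in every library of a group, the compared groups alone, a replicate block, and each library left out. The fit was tested on simulated data. Same-numbered pools of the 2 fractions deviated together (r from 0.13 to 0.32 in all 12 pairs), so their block was added after seeing the data.

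The members and the lists were chosen with earlier results of these data known. Named beside the members were 5 relatives, and from each pathway and resting fibroblast list up to 4 genes, in order of p, that passed for JQ1 in PLNR9C ventricles at 20 weeks and up to 2 for genotype under JQ1. 1 gene named by this rule is not reported here. Per the labels the libraries of a group are biological replicates; for the pools, p-values measure the spread between pools. Standard errors come from the same fit and include the spread between libraries of a group.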

Additional observations from a re-analysis of the deposited data

How the results depend on the processing

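Of 4010 values of single members under the alternatives, 3868 kept their side of the threshold, 85 lost the call and 57 gained it; among those that kept their side, 65 that passed in neither fit changed sign. Some counts of members called moved by over 1.5 times, and the cause was not tested. For JQ1 in PLNR9C cardiomyocytes the count was 0 in place of 1 with no filter, with a replicate block and with the compared groups alone. For JQ1 in wild type it was 2 in place of 1 in cardiomyocytes with the compared groups alone. In wild type non-myocytes it was 3 with DESeq2, 3 with the compared groups alone and 2 with a replicate block, in place of 1, and in wild type ventricles at 8 weeks it was 1 in place of 2 with no filter and with a replicate block. For genotype under JQ1 at 8 weeks it was 1 in place of 2 with a replicate block. For the JQ1 effect in non-myocytes minus cardiomyocytes it was 2 in place of 0 with the block of paired pools.

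With 1 library left out, the count for JQ1 in PLNR9C was 5 to 7 in ventricles at 20 weeks, 2 to 4 at 8 weeks, 3 to 4 in non-myocytes and 0 to 2 in cardiomyocytes. For JQ1 in wild type it was 2 to 4, 1 to 2, 1 to 3 and 0 to 2 in the same order. For genotype under JQ1 it was 9 to 9, 1 to 3, 5 to 8 and 7 to 9, and for the fraction difference 0 to 2. Within a sample type the replicate numbers were taken only to name samples. Every same-numbered pair had r over 0.1 in 1 comparison alone, vehicle-treated non-myocytes (r of 0.25, 0.12 and 0.16). At 8 weeks PLNR9C JQ1 samples also matched their own number best, at lower r, in PLNR9C vehicle (0.074, 0.12 and 0.08) and wild type JQ1 (0.075, 0.069 and 0.068). Members under 1 CPM in some groups, such as Nox4, limit what could be detected there.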
